A study of Mus musculus with 24 samples.

Results

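The transcription factor Nrf2, encoded by Nfe2l2, and 9 genes that it is known to drive were followed in TM3 cells, a mouse Leydig cell line, after a nanosecond pulsed electric field (nsPEF) or a sham treatment. The 10 genes were Nfe2l2, Nqo1, Hmox1, Gclm, Gclc, Txnrd1, Srxn1, Gsr, Sqstm1 and Osgin1, and their probes were found by matching the RefSeq transcript of each probe to the gene symbol. They are 10 of the 23787 genes that the array named, and they had 13 of its 56605 probes. All 13 were among the 37684 probes bright enough to be tested, and 12 of them were well above background on all 24 arrays.
The 6 groups were sham and nsPEF cells of 1 unmodified line sampled straight after treatment (0 h) or 4 or 24 h later, each with 4 biological replicates and 1 one-colour Agilent array per replicate. Cells of both kinds had been detached, washed cold, filtered and placed in electroporation cuvettes as a suspension, and the later samples had gone back into culture. The nsPEF cells received 80 pulses of 60 ns at 14 kV/cm over 180 s, and the sham cells received none. A value is the log2 processed signal of a probe minus the 75th percentile of its array, so levels are given within a probe only, and a difference of 1 is a 2-fold change.
Under basal conditions Nrf2 is held by Keap1, which passes it to a ubiquitin ligase with Cul3 and Rbx1 for destruction. Oxidants and electrophiles modify Keap1, and Nrf2 then enters the nucleus, pairs with a small Maf protein and binds antioxidant response elements, from which Bach1 can displace it. The genes it drives make glutathione, keep thioredoxin and glutathione reduced, break down haem and clear quinones. Leydig cells make testosterone through cytochrome P450 enzymes that leak reactive oxygen, and antioxidant defence is regarded as part of their steroidogenic capacity.
The core of the antioxidant response element is TGACNNNGC, with TGAGNNNGC as a variant, and TGACTCA is the site bound by AP-1. All 3 were searched on both strands from 250 bases before to 50 bases after each start in the RefSeq promoters of build GRCm38.p6. Promoters were matched for 7 of the 10 genes, in 9 windows, and those of Hmox1, Gclc and Gsr were not in the table. TGACNNNGC was in 4 of the 9 windows (44.4%), against 12.4% of all 32851 windows. TGAGNNNGC was in 22.2% against 17.6%, and TGACTCA in 22.2% against 5.2%. The stretches with a match before the start are shown for the 5 genes that had one, on the strand of the gene, with the match in capitals, and a match to the opposite strand reads as the reverse complement.
Srxn1, chr2:152105459-152105507, + strand: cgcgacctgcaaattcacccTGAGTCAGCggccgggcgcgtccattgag
Osgin1, chr8:119437028-119437076, + strand: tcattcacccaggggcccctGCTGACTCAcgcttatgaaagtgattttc
Gclm, chr3:122245403-122245451, + strand: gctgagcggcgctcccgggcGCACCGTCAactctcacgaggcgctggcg
Txnrd1, chr10:82859094-82859142, + strand: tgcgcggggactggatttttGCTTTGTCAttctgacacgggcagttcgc
Nfe2l2, chr2:75704875-75704913, - strand: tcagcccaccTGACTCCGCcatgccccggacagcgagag
In the Srxn1 and Osgin1 stretches the TGAGNNNGC match overlaps a TGACTCA match, so the same letters are counted under both names. The Srxn1 window also held a TGAGNNNGC match and a TGACTCA match farther upstream, and its TGACNNNGC match lay after the start. The matches describe the letters of these windows and do not show binding.
The 8 arrays of a time point shared 1 of 3 slides, so slide and time point cannot be told apart, and sham and nsPEF samples lay in different rows of every slide, so treatment and place cannot be told apart. The 75th percentile of the intensity ran from 201.8 to 532.7 over the arrays, with sham replicate 4 at 4 h the brightest, and 51.2% to 62.12% of probes were well above background. Each nsPEF group had a lower mean share than the sham group of its time point (54.83, 53.93 and 55.29% against 58.8, 59.46 and 59.88% at 0, 4 and 24 h), and its part in the differences below was not tested. Of the Leydig cell markers, Cyp17a1, Nr5a1 and Star were well above background on 24 arrays, Cyp11a1 and Lhcgr on 0 and Hsd3b1 on at most 1. No probe was matched to the Leydig cell marker Insl3. Among markers of other testicular cells, Sox9, Csf1r, Cd68 and Pecam1 were well above background on 24 arrays and Ddx4 on 16. Amh and Dazl were so on 2 arrays, Adgre1 and Sycp3 on 1, and Dhh, Gata1, Cdh5 and Tek on 0. The labelled cell type was thus only partly matched by its markers. Of the tested markers, Csf1r was lower in nsPEF cells at 0 h by -0.57 (limma, adjusted p = 0.0355) and Ddx4 at 24 h by -0.71 (limma, adjusted p = 0.0301), and their part in the results was not tested.

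The genes rose together from 0 h to 4 h in sham cells. By limma's moderated test with Benjamini-Hochberg adjustment over all 37684 tested probes, 12 of the 13 probes were higher at 4 h and 0 were lower, covering all 10 genes, where 59.1% of all tested probes were called, 29.4% higher and 29.7% lower. In nsPEF cells all 13 probes were higher, against 61.3% of all probes called, 33.5% higher and 27.8% lower. The median difference of the 13 probes was 0.84 in sham and 0.86 in nsPEF cells, against -0.01 and 0.09 over all tested probes. The genes were chosen with earlier results of these data known, so these comparisons with all tested probes are descriptive only. Higher signal in every cell and much higher signal in some cells cannot be told apart in such bulk samples.
Srxn1, which reduces over-oxidized peroxiredoxins, rose most of the 10. The sham arrays read 3.59, 3.61, 3.53 and 3.59 at the start and 5.65, 5.54, 5.54 and 5.39 after 4 h. In nsPEF cells the values were 3.68, 3.52, 3.62 and 3.74, then 5.64, 5.65, 5.52 and 5.52. The ranges at 0 h and 4 h were far apart in both treatments and those of sham and nsPEF cells overlapped at each time. Srxn1 was 3.87-fold higher at 4 h in sham cells (log2 difference 1.95, SE 0.06, adjusted p = 3.46e-16) and 3.85-fold higher in nsPEF cells (1.94, SE 0.06, adjusted p = 3.39e-16).
Hmox1, the inducible haem oxygenase, followed. The sham arrays read 3.95, 4.08, 3.96 and 4.07 at the start and 5.64, 5.66, 5.58 and 5.53 after 4 h. The nsPEF arrays read 3.95, 3.91, 4.06 and 4.12, then 5.87, 5.89, 5.75 and 5.79. At 0 h the treatments overlapped, and at 4 h every nsPEF array lay above every sham array. The rise was 3.00-fold in sham cells (log2 difference 1.58, SE 0.06, adjusted p = 1.54e-14) and 3.52-fold in nsPEF cells (1.82, SE 0.06, adjusted p = 1.73e-15).
The reductases of the thioredoxin and glutathione systems differed in the size of their rise. Txnrd1, which returns thioredoxin to its reduced form, read 4.93, 5.01, 4.81 and 4.91 on its brighter probe in sham cells at 0 h, then 6.33, 6.27, 6.20 and 6.06. It was 2.46-fold higher at 4 h in sham cells (1.30, SE 0.06, adjusted p = 4.95e-13) and 2.72-fold higher in nsPEF cells (1.44, SE 0.06, adjusted p = 9.15e-14). Gsr, which does the same for glutathione, went from a range of 4.14 to 4.36 to one of 4.61 to 4.84 in sham cells, a rise of 0.47 (SE 0.07, adjusted p = 6.87e-06), and rose by 0.41 (SE 0.07, adjusted p = 3.47e-05) in nsPEF cells.
Both subunits of glutamate-cysteine ligase, which catalyses the rate-limiting step of glutathione synthesis, were higher at 4 h. The catalytic subunit Gclc read 2.05, 2.18, 2.19 and 2.32 in sham cells at 0 h, then 3.09, 3.12, 2.99 and 2.89. It rose by 0.84 in sham cells (SE 0.08, adjusted p = 2.22e-08) and by 0.86 in nsPEF cells (SE 0.08, adjusted p = 1.44e-08). The modifier subunit Gclm rose by 0.51 in sham cells (SE 0.05, adjusted p = 6.36e-08) and by 0.65 in nsPEF cells (SE 0.05, adjusted p = 1.43e-09), with no overlap between times.
Sqstm1, the autophagy receptor p62, which also binds Keap1, read 5.13, 5.18, 5.25 and 5.26 on its brighter probe in sham cells at 0 h, then 6.32, 6.32, 6.38 and 6.15. It was 2.13-fold higher at 4 h in sham cells (1.09, SE 0.06, adjusted p = 2.46e-12) and 2.49-fold higher in nsPEF cells (1.32, SE 0.06, adjusted p = 1.22e-13). The quinone reductase Nqo1 rose by 0.45 in sham cells (SE 0.08, adjusted p = 3.09e-05) and by 0.59 in nsPEF cells (SE 0.08, adjusted p = 9.68e-07). Osgin1, a growth inhibitor induced by oxidative stress, rose by 0.37 (SE 0.08, adjusted p = 0.000661) and by 0.51 (SE 0.08, adjusted p = 1.7e-05).
Nfe2l2 itself was among the members that changed less. Its brighter probe read 3.43, 3.71, 3.49 and 3.54 in sham cells at 0 h, then 3.98, 3.89, 4.01 and 3.94. The rise was 0.41 in sham cells (SE 0.06, adjusted p = 3.92e-06) and 0.41 in nsPEF cells (SE 0.06, adjusted p = 4.91e-06), or 1.33-fold and 1.32-fold. Its other probe, for a transcript that RefSeq lists as non-coding, was the one probe not called in sham cells, with 0.47, 0.39, 0.20 and 0.63 at 0 h, then 0.79, 0.69, 0.57 and 0.46 (difference 0.21, SE 0.10, adjusted p = 0.0982). Without sham replicate 4 at 0 h this probe was called (adjusted p = 0.0386), and its rise of 0.32 in nsPEF cells (adjusted p = 0.0127) was not called without nsPEF replicate 1 at 4 h (adjusted p = 0.0532).

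**Figure D1:**
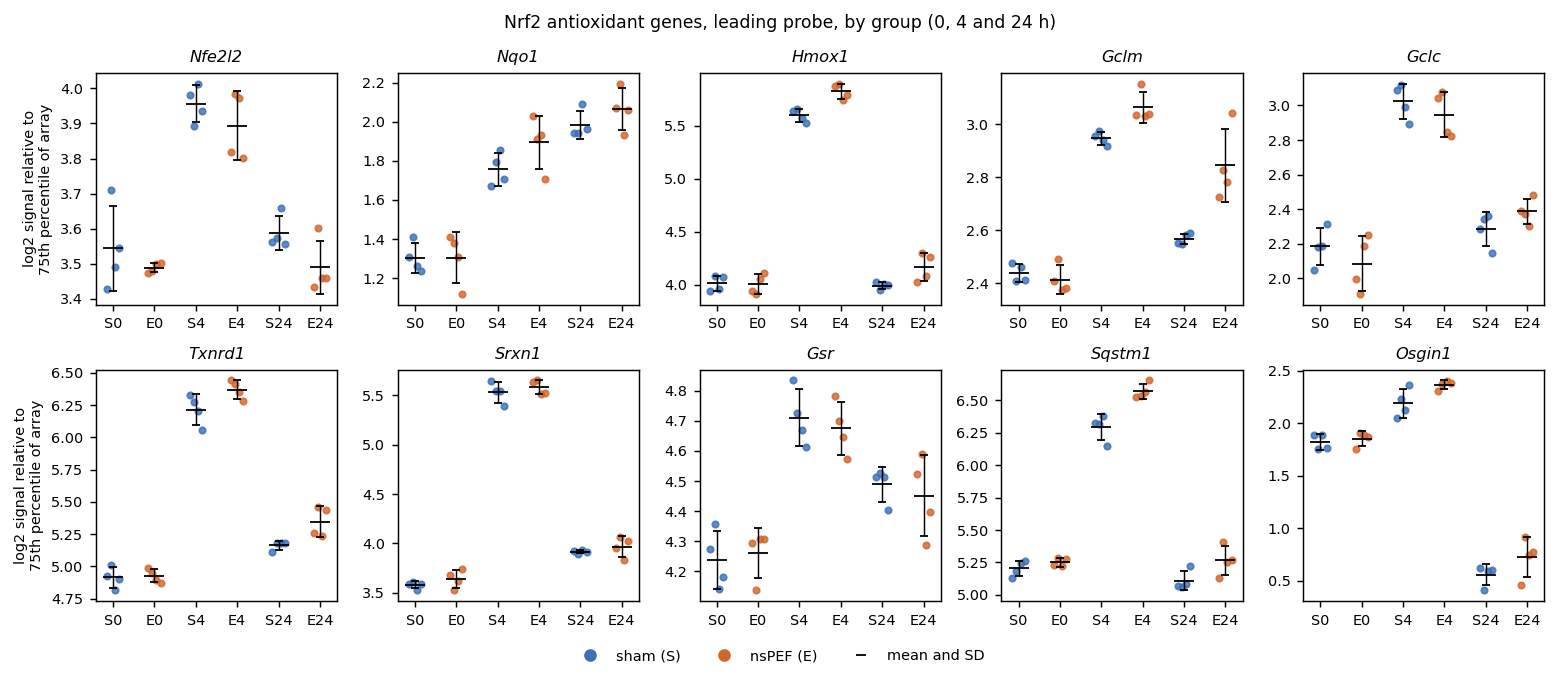
Log2 signal minus the 75th percentile of the array (y axis) for the brightest probe of each of the 10 genes in the 6 groups (x axis: S, sham; E, nsPEF; number, hours). Points are single arrays, 4 in each group, and lines give the mean and SD; most genes peak at 4 h, Nqo1 does not come down at 24 h and Osgin1 lies below its 0 h level at 24 h.

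For most of the probes, most of the rise was gone at 24 h. From 4 h to 24 h, 11 of the 13 probes fell in sham cells and 1 rose, against 57.7% of all tested probes called, 27.8% higher and 29.9% lower, and in nsPEF cells 11 fell and 0 rose, against 56.6% called, 27.5% higher and 29% lower. These counts rest on scaling to the 75th percentile. When arrays were scaled on their spike-in RNA instead, the median of all tested probes was shifted up by 0.66 from 4 h to 24 h in sham cells and by 0.37 in nsPEF cells, and by 0.70 and 0.54 from 0 h to 24 h, so all changes to 24 h are changes relative to the bulk of the probes. Under that scaling Hmox1 and Srxn1 still fell from 4 h to 24 h in sham cells, by 0.96 and 0.97, while the brighter Nfe2l2 probe, Gclm and Gsr in sham cells and the non-coding Nfe2l2 probe, Gclm and Gsr in nsPEF cells went from differences below 0 to differences above 0. In nsPEF cells Gclm and Gsr were also not called lower, and Nqo1 was called higher, with quantile normalization (adjusted p = 0.211, 0.7 and 0.00391), with the percentile over detected probes (adjusted p = 0.139, 0.161 and 0.00138) and with normexp background correction (adjusted p = 0.294, 0.723 and 0.00493). With centring by spot row and signal, Gsr was not called (adjusted p = 0.0707) and Nqo1 was called higher (adjusted p = 0.00256). In sham cells Gsr was not called under any of these settings other than spike-in scaling, where it was higher.
Hmox1 came back to its starting level, with 4.03, 3.95, 4.01 and 4.00 on the sham arrays at 24 h. Its difference from 0 h was -0.02 (SE 0.06, adjusted p = 0.834), which became 0.68 with spike-in scaling. In nsPEF cells it read 4.03, 4.30, 4.08 and 4.26 at 24 h, a difference of 0.16 from 0 h (SE 0.06, adjusted p = 0.0465) that was called in 8 of 28 fits without 1 array or replicate number.
Both Sqstm1 probes also returned, with differences from 0 h of -0.09 (adjusted p = 0.236) and -0.08 (adjusted p = 0.477) in sham cells and of 0.01 (adjusted p = 0.882) and -0.01 (adjusted p = 0.912) in nsPEF cells, the negative ones turning positive with spike-in scaling. Nfe2l2 did likewise on its brighter probe, at 0.04 (adjusted p = 0.605) and 0.00 (adjusted p = 0.997). Srxn1 read 3.92, 3.89, 3.93 and 3.92 in sham cells at 24 h and stayed above 0 h, by 0.34 (SE 0.06, adjusted p = 0.000177) in sham cells and 0.33 (SE 0.06, adjusted p = 0.000184) in nsPEF cells.
In the comparison of 24 h with 0 h, 7 of the 13 probes were called in sham cells, 5 higher and 2 lower, against 36.6% of all tested probes called, 16.9% higher and 19.7% lower. In nsPEF cells 9 were called, 7 higher and 2 lower, against 42.2% called, 23.9% higher and 18.3% lower. Without 1 replicate or replicate number the counts ranged from 4 to 8 and from 5 to 9. Those over all tested probes ranged from 9582 to 14514 in sham cells and from 11746 to 16643 in nsPEF cells. Gclm lay 0.43 above 0 h in nsPEF cells (limma, adjusted p = 2.52e-06) and 0.13 above it in sham cells (adjusted p = 0.0713). Gsr lay 0.25 above 0 h in sham cells (limma, adjusted p = 0.0082) and 0.19 above it in nsPEF cells (adjusted p = 0.0363). Which genes were called in each treatment moved with the setting. Gclm, called in nsPEF cells, was also called in sham cells in 6 of 13 other settings, and the Gclc call in nsPEF cells was lost without replicate number 1 or 2 in all groups (adjusted p = 0.052 and 0.062). No interaction of treatment and time was called for Gclm, Gclc or Hmox1.
Nqo1, which reduces quinones in a step that avoids radical formation, kept its rise. In sham cells it read 1.31, 1.41, 1.26 and 1.24 at 0 h, then 1.67, 1.79, 1.86 and 1.71 at 4 h, then 1.94, 1.94, 2.09 and 1.96. In nsPEF cells it read 1.41, 1.38, 1.31 and 1.12, then 2.03, 1.91, 1.93 and 1.71, then 2.07, 2.19, 1.93 and 2.06. No array at 4 h or 24 h overlapped with those at 0 h. The level at 24 h was 1.60-fold that at 0 h in sham cells (0.68, SE 0.08, adjusted p = 7.3e-07) and 1.69-fold in nsPEF cells (0.76, SE 0.08, adjusted p = 1.41e-07). From 4 h to 24 h it rose by 0.23 in sham cells (SE 0.08, adjusted p = 0.0144; without sham replicate 3 at 24 h, adjusted p = 0.0531) and differed by 0.17 in nsPEF cells (SE 0.08, adjusted p = 0.0653).
Osgin1 went the other way. In sham cells it read 1.89, 1.75, 1.89 and 1.76 at 0 h, then 2.05, 2.23, 2.12 and 2.36 at 4 h, then 0.62, 0.41, 0.59 and 0.60. In nsPEF cells the 24 h arrays read 0.46, 0.91, 0.74 and 0.78. All 8 arrays at 24 h lay below all arrays at 0 h and 4 h. Osgin1 was 2.41-fold lower at 24 h than at 0 h in sham cells (-1.27, SE 0.08, adjusted p = 3.74e-10) and 2.19-fold lower in nsPEF cells (-1.13, SE 0.08, adjusted p = 1.61e-09), and with spike-in scaling the differences were -0.57 and -0.65.

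**Figure D2:**
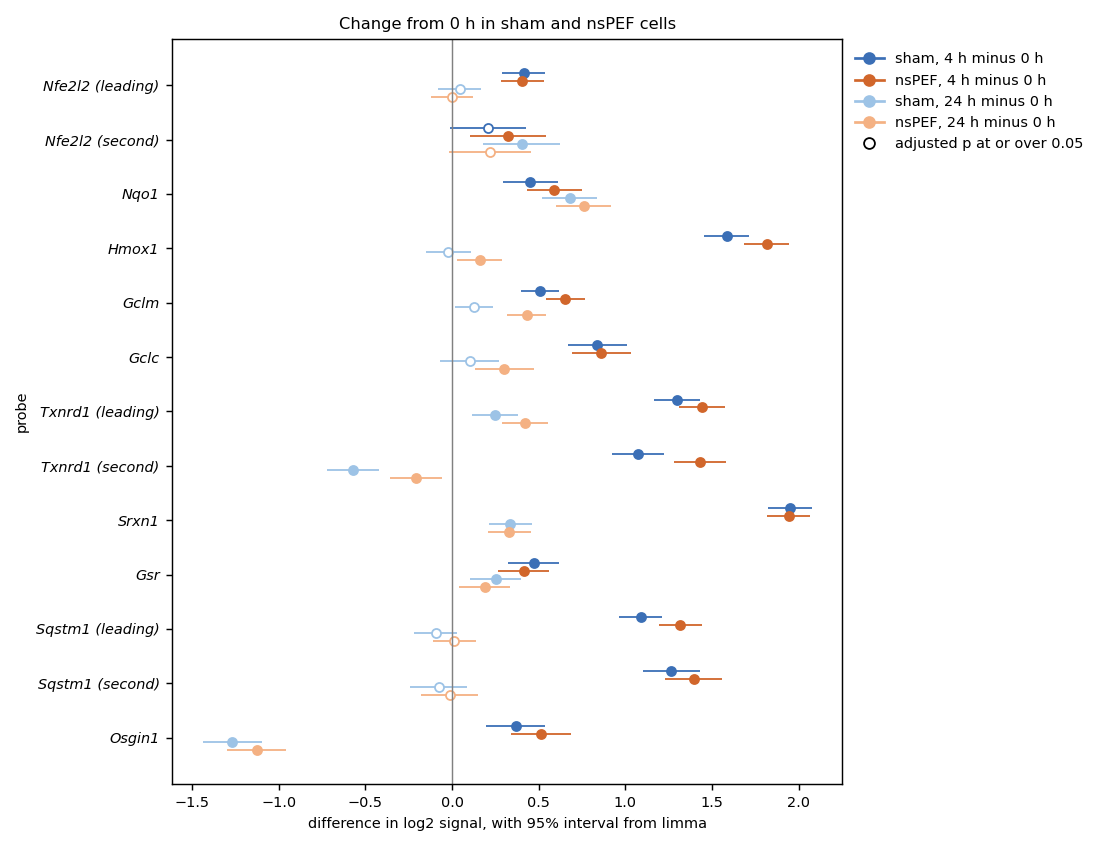
Differences in log2 signal from 0 h (x axis) for each of the 13 probes (y axis), at 4 h and 24 h in sham and nsPEF cells, with 95% intervals from limma; open points have an adjusted p of 0.05 or more. The 4 h points lie to the right of 0 for every probe, and at 24 h Osgin1 and the second Txnrd1 probe lie to the left.

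Of the 3 genes with a pair of probes, Txnrd1 and Nfe2l2 gave unlike values at 24 h. The 2 Txnrd1 probes are listed for the same transcript, and both rose at 4 h. In sham cells the second probe read 3.92, 3.82, 3.84 and 3.73 at 0 h, then 4.94, 4.94, 4.82 and 4.90 at 4 h, then 3.31, 3.30, 3.23 and 3.17. The brighter probe read 5.11, 5.18, 5.18 and 5.18 at 24 h. Relative to 0 h the brighter probe was therefore higher by 0.25 (SE 0.06, adjusted p = 0.00467) and the second lower by -0.57 (SE 0.07, adjusted p = 3.33e-06), with no overlap of arrays for either.
In nsPEF cells the 2 Txnrd1 differences from 0 h to 24 h were 0.42 (SE 0.06, adjusted p = 2.96e-05) and -0.21 (SE 0.07, adjusted p = 0.0238), and the call on the second probe was lost without nsPEF replicate 1, 2 or 3 at 0 h or replicate 1 or 2 at 24 h, and without replicate number 1, 2 or 3 in all groups, with adjusted p up to 0.191. With spike-in scaling the second probe was at 0.13 in sham cells and 0.26 in nsPEF cells, and with the mean of both probes Txnrd1 was at -0.16 in sham cells, so its direction at 24 h depended on the probe and on the scaling. The level of the Txnrd1 gene at 24 h is for this reason given by probe only.
The 2 Sqstm1 probes, also of one transcript, rose by 1.09 and 1.27 at 4 h in sham cells. For Nfe2l2 the non-coding probe was higher at 24 h than at 0 h in sham cells by 0.40 (SE 0.10, adjusted p = 0.00551) where the brighter probe was not called. That call was lost with marked spots kept (adjusted p = 0.323), in the deposited log2 values (adjusted p = 0.322) and without replicate number 2 or 3 in all groups (adjusted p = 0.0597 and 0.0951). The value of the non-coding probe on nsPEF replicate 4 at 24 h was left out as a spot marked by the scanner software, which left 3 arrays there.

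**Figure D3:**
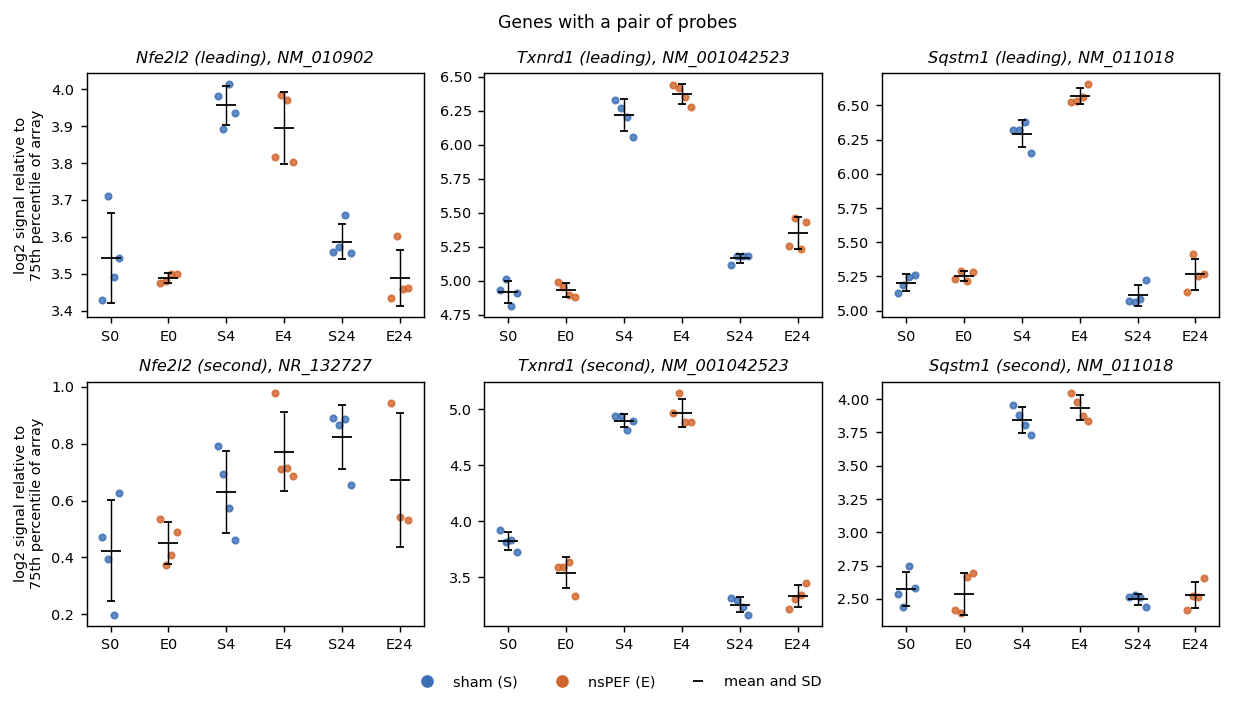
Log2 signal minus the 75th percentile of the array (y axis) by group (x axis) for the pairs of probes of Nfe2l2, Txnrd1 and Sqstm1, with points for arrays and lines for mean and SD. In the Txnrd1 panels the 24 h arrays lie above those of 0 h on the brighter probe and, in sham cells, below them on the second.

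The question of what the pulses add was asked at each time point by comparing nsPEF with sham cells. At 0 h 0 of the 13 probes were called, against 0.127% of all tested probes, and 1 had an unadjusted p under 0.05 by limma and 0 were called by the other methods run, except for 1 with array weights. That probe was the second of Txnrd1, at 3.92, 3.82, 3.84 and 3.73 in sham and 3.60, 3.59, 3.63 and 3.34 in nsPEF cells, with no overlap (difference -0.29, SE 0.07, adjusted p = 0.126).
At 4 h 1 of the 13 probes was called higher, against 3.31% of all tested probes called, 1.71% higher and 1.6% lower. This was the brighter Sqstm1 probe, which read 6.32, 6.32, 6.38 and 6.15 in sham cells and 6.53, 6.54, 6.56 and 6.66 in nsPEF cells. All 4 nsPEF arrays lay above all 4 sham arrays, by 0.28 on average (1.21-fold, SE 0.06, adjusted p = 0.0172). Without the brightest array, sham replicate 4, it was 0.23 (adjusted p = 0.0406). The other Sqstm1 probe differed by 0.09 (SE 0.08, adjusted p = 0.526). The call on the brighter probe was lost with normexp background correction (adjusted p = 0.0568) and without any one replicate number in all groups (adjusted p from 0.0658 to 0.119). Over all tested probes 99 to 1417 were called at 4 h in the fits without 1 array or replicate number, against 1247 in the main fit.
Hmox1 differed by 0.23 at 4 h (1.17-fold, 95% interval 0.10 to 0.36, adjusted p = 0.0512), just short of the threshold. It was called in 8 of 13 other settings and in 5 of 28 fits without 1 array or replicate number (limma, adjusted p up to 0.202). Gclm read 2.96, 2.97, 2.94 and 2.92 in sham and 3.04, 3.15, 3.03 and 3.04 in nsPEF cells at 4 h, again without overlap, with a difference of 0.12 (SE 0.05, adjusted p = 0.217). Of the 13 probes 10 had a difference above 0 and 3 below, with a median of 0.12 against 0.00 over all tested probes. With spike-in scaling the median of all tested probes moved to 0.19 at 4 h, and 6 members were then called. The share of all tested probes called under that scaling is not given here, so the 6 do not set the members apart.
At 24 h 1 probe was called higher, against 4.82% of all tested probes called, 2.64% higher and 2.18% lower. This was Gclm, with 2.55, 2.55, 2.58 and 2.59 in sham and 2.73, 2.83, 2.78 and 3.04 in nsPEF cells. The sham arrays lay close together below all the nsPEF arrays, and the difference was 0.28 (1.21-fold, SE 0.05, adjusted p = 0.00765). It was 0.21 with spike-in scaling (adjusted p = 0.114) and 0.21 without nsPEF replicate 4 at 24 h (adjusted p = 0.0156), and without replicate number 2 or 3 in all groups its adjusted p was 0.101 or 0.0648.
Txnrd1 on its brighter probe differed by 0.18 at 24 h (95% interval 0.05 to 0.32, adjusted p = 0.0993), Hmox1 by 0.17 (0.04 to 0.30, adjusted p = 0.108) and Sqstm1 on its brighter probe by 0.16 (0.03 to 0.28, adjusted p = 0.129). Without nsPEF replicate 1 at 24 h, these 3 and Osgin1 were called as well, which made 5 in place of 1. In the main fit the second probes of Txnrd1 and Sqstm1 differed by 0.08 and 0.03 at 24 h (limma, adjusted p = 0.557 and 0.855). Over all tested probes 159 to 4231 were called at 24 h in the fits without 1 array or replicate number, against 1815 in the main fit. Nfe2l2 on its brighter probe stood at -0.05, -0.06 and -0.10 at the 3 times (adjusted p = 0.849, 0.573 and 0.336). Srxn1 differed by 0.06, 0.05 and 0.05, with 95% intervals that reached no higher than 0.18.
Averaged over the 3 times, 3 of the 13 probes were called higher in nsPEF cells and 0 lower, against 8.84% of all tested probes called, 4.39% higher and 4.44% lower. These were Sqstm1 on its brighter probe (0.16, SE 0.03, adjusted p = 0.0101), Hmox1 (0.13, SE 0.04, adjusted p = 0.0299) and Gclm (0.12, SE 0.03, adjusted p = 0.0208). The other Sqstm1 probe, of the same transcript, was at 0.03 (SE 0.05, limma, adjusted p = 0.723). The Hmox1 call was lost without sham replicate 1 at 0 h (adjusted p = 0.0505), sham replicate 2 at 24 h (adjusted p = 0.0537) or nsPEF replicate 2 at 24 h (adjusted p = 0.0521), with marked spots kept (adjusted p = 0.0521) and in the deposited log2 values (adjusted p = 0.0523). Without any one replicate number in all groups neither Hmox1 (adjusted p from 0.0692 to 0.13) nor Gclm (adjusted p from 0.057 to 0.188) was called, and Sqstm1 was not called without number 2 or 3 (adjusted p = 0.11 and 0.0625). The brighter Txnrd1 probe was just short of the threshold (0.12, SE 0.04, limma, adjusted p = 0.0532). It was called in 10 of 14 other settings and in 5 of 28 fits without 1 array or replicate number. The second Txnrd1 probe was at -0.05 (SE 0.04, limma, adjusted p = 0.495). Over all tested probes 266 to 4001 were called for treatment in the fits without 1 array or replicate number, against 3330 in the main fit.
The interaction of treatment and time, limma's F test of whether nsPEF minus sham changed between times, was called for 0 of the 13 probes, against 0.377% of all tested probes. An unadjusted p under 0.05 was found for 4 of them, the second Txnrd1 probe (adjusted p = 0.112), Gclm (adjusted p = 0.115), Hmox1 (adjusted p = 0.279) and the brighter Sqstm1 probe (adjusted p = 0.287). With array weights, or without nsPEF replicate 1 at 24 h, 2 were called. Over all tested probes 33 to 1239 were called for the interaction in the fits without 1 array or replicate number, against 142 in the main fit. The effect of time, by the F test, was called for 13 of 13 probes, against 80.2% of all tested probes.

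**Figure D4:**
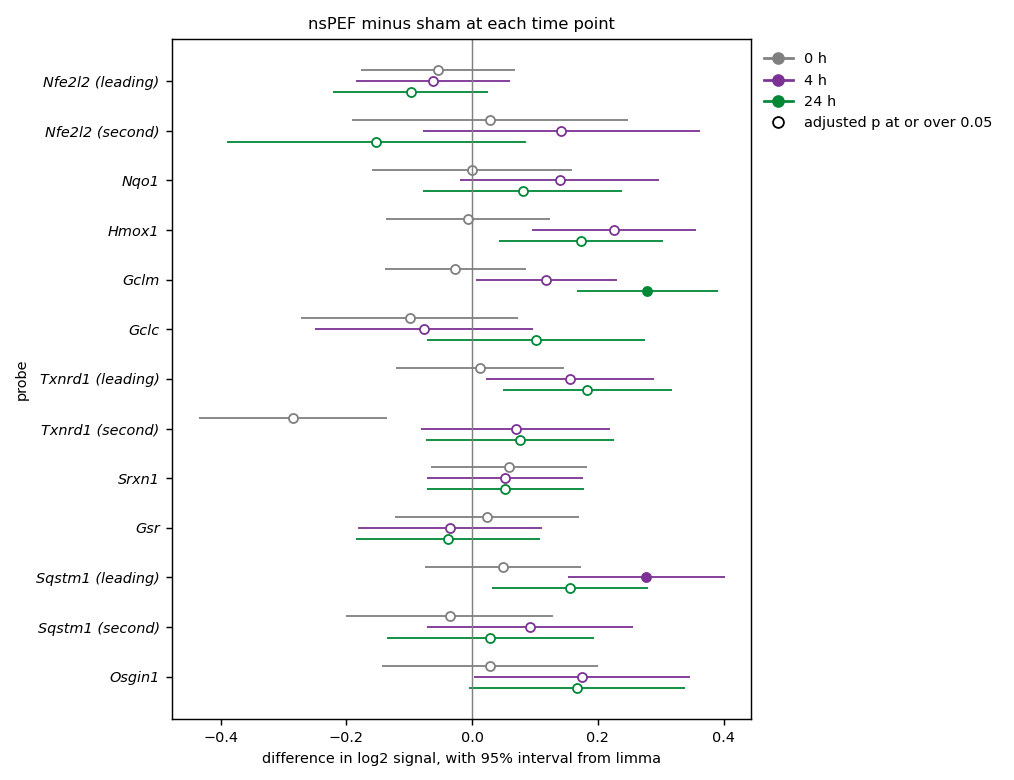
Differences in log2 signal between nsPEF and sham cells (x axis) for each of the 13 probes (y axis) at 0, 4 and 24 h, with 95% intervals from limma; filled points have an adjusted p under 0.05. The brighter Sqstm1 probe at 4 h and Gclm at 24 h are the filled points, both at 0.28.

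Of 45 further genes in 7 lists, 44 could be tested, each by its brightest probe, and Gpx3 was not above background often enough. In sham cells from 0 h to 4 h 13 were higher and 18 lower, against 29.4% and 29.7% of all tested probes, with a median difference of -0.07. In nsPEF cells 17 were higher and 17 lower, against 33.5% and 27.8%, with a median of 0.05.
Among the 8 regulators 5 rose and 1 fell in sham cells. The small Maf partner Maff rose by 1.08 (SE 0.07, adjusted p = 2.04e-11), and Bach1, the repressor that competes for the same elements, rose by 0.81 (SE 0.07, adjusted p = 1.65e-09). Rbx1, the ring subunit of the ligase, fell by 0.22 (SE 0.06, adjusted p = 0.00464). Keap1 was at -0.08 in sham cells (SE 0.04, adjusted p = 0.15) and lower by -0.23 in nsPEF cells (SE 0.04, adjusted p = 0.000143).
Of the 8 glutathione genes 2 rose and 4 fell. Gss, which completes glutathione, rose by 1.44 (SE 0.08, adjusted p = 1.46e-12), and Slc7a11, the cystine carrier, by 0.93 (SE 0.15, adjusted p = 1.55e-05), while the microsomal transferase Mgst1 fell by 0.65 (SE 0.04, adjusted p = 5.28e-11). In the thioredoxin list 0 of 4 rose and 1 fell, Sesn2, by 0.46 (SE 0.06, adjusted p = 8.44e-07). Of 6 genes that supply NADPH 2 rose and 1 fell, from Pgd at 0.58 (adjusted p = 2.04e-06) to Idh1 at -0.85 (adjusted p = 8.72e-10).
The haem and iron list, which lies next to Hmox1 in function, had 0 of 6 higher and 5 lower in sham cells. In nsPEF cells 1 of the 6 was higher and 3 were lower. The called differences of this list in sham cells ran from Slc40a1, the iron exporter ferroportin, at -1.27 (SE 0.13, adjusted p = 3.86e-08) to the haem carrier Slc48a1 at -0.20 (SE 0.06, adjusted p = 0.00503). Of 7 detoxification and efflux genes 3 rose and 4 fell, with the export pump Abcc4 at 1.04 (adjusted p = 1.04e-10) and the carbonyl reductase Cbr1 at -0.71 (adjusted p = 9.65e-10). Of 5 tested superoxide and peroxide enzymes 1 rose and 2 fell, with mitochondrial Sod2 at 0.51 (adjusted p = 0.000599) and catalase, Cat, at -0.54 (adjusted p = 1.14e-06).
Between nsPEF and sham cells 0 of these 44 genes were called at 0 h and 0 at 4 h by limma, and 1 at 24 h, against 0.127%, 3.31% and 4.82% of all tested probes. It was G6pdx, the entry enzyme of the pentose phosphate pathway, named here after its values were seen, at 0.22 (SE 0.06, adjusted p = 0.045), and this call was lost with spike-in scaling (adjusted p = 0.247) and without most single arrays, the lowest difference being 0.17 without sham replicate 1 at 24 h (adjusted p = 0.145).

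**Figure D5:**
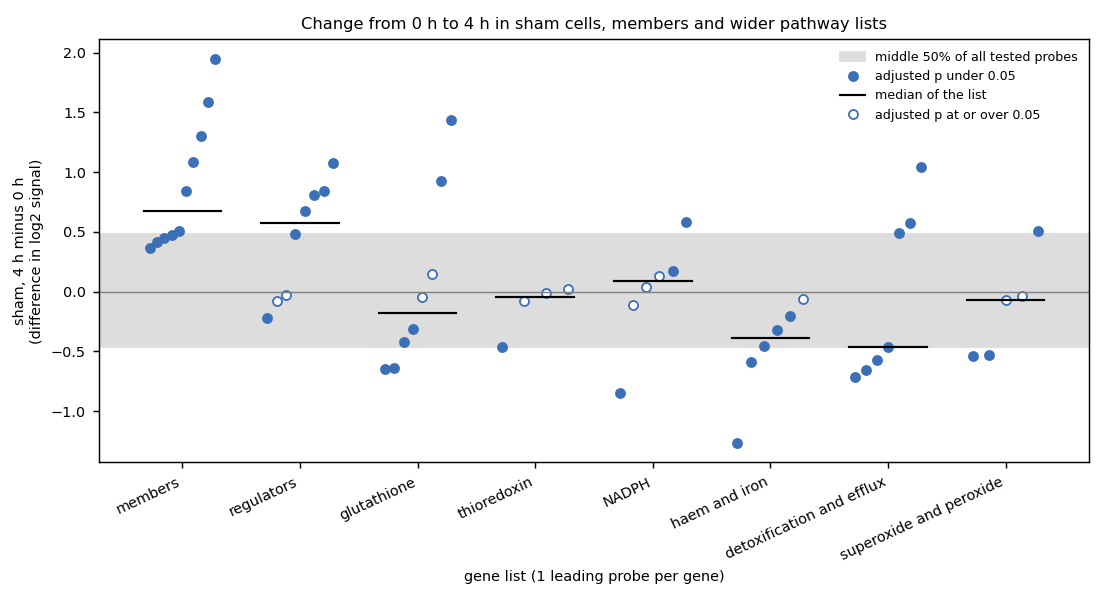
Difference in log2 signal between 4 h and 0 h in sham cells (y axis) for the 10 genes and 7 wider lists (x axis), 1 probe per gene; filled points have an adjusted p under 0.05, black lines are list medians and the grey band is the middle 50% of all tested probes. All 10 genes lie above 0 and the wider lists reach below it.

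The likeness of the patterns was described by Pearson's r over the 24 arrays, which share their time points and slides, among 16095 genes. The genes most like Hmox1 were Dusp14 (r = 0.9959), Vps37b (r = 0.9947) and Prag1 (r = 0.9939), and those most like Nfe2l2 were Epc2 (r = 0.9661), Map4k5 (r = 0.9613) and Maip1 (r = 0.9599). Nqo1 was most like Dna2 (r = 0.9555), Uchl4 (r = 0.9447) and Fam162a (r = 0.936). The members were left out of these rankings, so no member could appear in them. Among the members the highest r was 0.9896 for Hmox1 (with Sqstm1), 0.9195 for Nfe2l2 (with Srxn1) and 0.6427 for Nqo1 (with Gclm). Over the 45 pairs of members r was above 0 in 44, with a median of 0.82, and the remaining pair was Nqo1 and Osgin1 (r = -0.46). After the group means were removed r was above 0 in 34 of the 45 pairs, with a median of 0.26. Pairs of other genes were not computed, and 80.2% of all tested probes were called for time. These counts therefore do not set the members apart.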

How the data were processed

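RNA of 24 TM3 samples, 4 biological replicates in each of 6 groups, was hybridized to one-colour arrays. Per the file headers and the study's methods, the authors read the arrays with Agilent Feature Extraction 12.0 and deposited spot intensities in arbitrary units, background-subtracted and detrended but not scaled between arrays. The table of log2 values that the authors deposited, scaled to the 75th percentile and centred on each probe's median, served as an alternative.
Spots marked by the software were left out, spots of a probe were averaged, and the 75th percentile of each array was subtracted on the log2 scale. A probe was tested where it was well above background on at least 2 of 4 arrays of any group. Group means were fitted with limma 3.58.1 in R 4.3.3 and p-values adjusted after Benjamini and Hochberg, with calls at an adjusted p under 0.05. The methods' two-way analysis of variance with interaction was run as an alternative, and the procedure was tested on simulated data. The number of arrays limits the precision.
All probes of the 10 genes are named, the probe with the highest mean leading. Of the wider lists Keap1, Bach1, Slc7a11 and, per list, the highest and lowest called difference from 0 h to 4 h in sham cells are named. The 3 genes outside the 10 that were most correlated to Nfe2l2, Hmox1 and Nqo1 are named too. The members and lists were chosen with earlier results of these data known. Other settings were quantile and spike-in scaling (210 spots), a percentile over detected probes, normexp on the median intensity (offset 50) (the mean intensity was not used here), other filters, marked spots kept, centring by spot row and signal, a floor at background, array weights, the mean of a gene's probes, a replicate block, and fits without each array or replicate number.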

Additional observations from a re-analysis of the deposited data

Results flagged for a closer look

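In 12 of 77 groups of 4 arrays, 1 array of a member lay far from the other 3, by the share of the group's range that its gap took. Chance alone flags about 1 group in 20. Of these 12, 7 were in sham cells at 24 h, where the other 3 arrays lay close together. There, Nfe2l2 read 3.66 on replicate 3 against 3.57 on the next array, its non-coding probe 0.66 on replicate 4 against 0.87, Nqo1 2.09 on replicate 3 against 1.96, and Txnrd1 5.11 on replicate 1 against 5.18. Gsr read 4.40 on replicate 4 against 4.51, Sqstm1 5.22 on replicate 4 against 5.08 and Osgin1 0.41 on replicate 2 against 0.59.
The other 5 were in nsPEF cells. Nfe2l2 read 3.60 on replicate 2 at 24 h against 3.46, its non-coding probe 0.98 on replicate 1 at 4 h against 0.72, and Gclm 3.15 on replicate 2 at 4 h against 3.04. At 0 h the second Txnrd1 probe read 3.34 on replicate 4 against 3.59 and Gsr 4.14 on replicate 2 against 4.30.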

How the results depend on the processing

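The 4 h rise kept its sign for every probe in both treatments in each of the other settings that gave it, 42 settings being run in all, and 13 of 13 probes stayed called for the effect of time in the fits without 1 array or replicate number. The probes called between nsPEF and sham cells at 4 h numbered 1, and became 2 with quantile normalization, centring by spot row and signal, a floor at background, no filter or the probes of a gene averaged, 3 with a percentile over detected probes and 6 with spike-in scaling. At 24 h the 1 became 3 with a percentile over detected probes or centring, 2 with normexp, 5 with array weights and 0 with spike-in scaling, and at 0 h array weights gave 1. The treatment effect went from 3 to 6 with spike-in scaling and to 5 with normexp or array weights. The interaction went from 0 to 2 with array weights, and sham 24 h against 0 h from 7 to 12 with spike-in scaling. In nsPEF cells that scaling also added calls from 0 h to 24 h. Both Nfe2l2 probes (0.47 and 0.69) and both Sqstm1 probes (0.49 and 0.46) were then called higher. The shares of all tested probes called in these settings are not given here, so the counts do not set the members apart. Without 1 array or replicate number the calls ranged from 0 to 0, 0 to 2 and 0 to 5 for nsPEF against sham at 0, 4 and 24 h, from 0 to 5 for treatment and from 0 to 2 for the interaction. For sham cells they ranged from 12 to 13 (4 h against 0 h), 4 to 8 (24 h against 0 h) and 10 to 12 (24 h against 4 h), and for nsPEF cells from 12 to 13, 5 to 9 and 10 to 12. Over all tested probes the calls for nsPEF against sham moved widely in the same fits, from 99 to 1417 at 4 h and from 159 to 4231 at 24 h. A member call lost or gained in such a fit is therefore not read as particular to the members.
With spike-in scaling, which by construction adds the shift of all probes given above, several changes to 24 h turned positive. From 0 h in sham cells these were Hmox1 (0.68), the second Txnrd1 probe (0.13) and both Sqstm1 probes (0.61 and 0.62), and in nsPEF cells the second probes of Txnrd1 (0.26) and Sqstm1 (0.46). From 4 h they were Nfe2l2 (0.28), Gclm (0.27) and Gsr (0.43) in sham cells and the non-coding Nfe2l2 probe (0.30), Gclm (0.18) and Gsr (0.17) in nsPEF cells. Gsr from 4 h to 24 h in sham cells was also at 0.0037 with quantile normalization and 0.025 with normexp, where the cause was not tested. With the mean of a gene's probes Txnrd1, whose 2 probes went different ways, was at -0.16 from 0 h to 24 h in sham cells. Nfe2l2 was at 0.096 from 4 h to 24 h in nsPEF cells, where nsPEF replicate 4 at 24 h had a value for the brighter probe alone.
The study describes running the assays of a replicate side by side on one batch of suspended cells, but the labels do not tie the replicate numbers to it. The deviations of arrays that share a number had r from -0.04 to 0.09 in 12 pairs of sham and nsPEF arrays. Values this small on single arrays cannot settle whether the numbers are pairs, and the main fit did not take them as pairs. The replicate block left the calls between nsPEF and sham cells at 0, 1 and 1 at the 3 times. Under it the treatment effect on the brighter Txnrd1 probe was called (adjusted p = 0.0425), as in most of the other settings. Nqo1 from 4 h to 24 h in nsPEF cells was also called (adjusted p = 0.0461), and Hmox1 from 0 h to 24 h in nsPEF cells was not (adjusted p = 0.0513). Of 12 sham arrays 7 were best matched by their own number, a hint from the data and not from the design. With 4 arrays in a group, SEs of about 0.06 on the log2 scale set the size of difference that could be called.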
